A study of Mus musculus with 16 samples.

Results

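The SR proteins are the classical serine and arginine rich splicing factors, and 10 of their genes were followed in mouse liver. The members Srsf1, Srsf2, Srsf3, Srsf4, Srsf5, Srsf6, Srsf7, Srsf9, Srsf10 and Srsf11 were taken by gene name, as the rows whose Ensembl identifier maps to these symbols. They are 10 of 46078 genes in the table of counts, and all 10 passed the filter on low counts that left 15075 genes for testing. Srsf12, listed with the SR-related genes, had 14 counts in the 16 libraries together and was not tested.

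The study asked how feeding state and diet affect the splicing machinery of the liver. Male C57BL6/J mice (the labels spell the strain C56B6/J) ate control diet (CD) or an obesogenic high-fat diet (HFD, with 60% of kcal from fat) from 8 weeks of age, and livers were sampled after 16 weeks on the diet. Mice were either fed ad libitum or fasted for 16 h, which gave the groups CD fed, CD fast, HFD fed and HFD fast, with 4 RNA-seq libraries in each. The labels number the libraries of a group without naming animals, so the p-values measure the spread between these libraries. No transgene, deletion or drug was part of these groups.

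SR proteins bind exonic enhancers through an RNA recognition motif at the amino end and recruit the spliceosome through a tail of serine-arginine repeats, the RS domain. Phosphorylation of that tail by the SRPK and CLK kinases sets whether the protein sits in nuclear speckles, acts in splicing or, for some members, accompanies mRNA to the cytoplasm. Most SR genes also limit their own level by splicing a poison exon into their transcripts, which are then removed by nonsense-mediated decay. In liver, Srsf5 was originally known as a gene induced by insulin and during regeneration. Counts per gene add transcripts with and without poison exons, so these values say nothing about that choice, and in whole liver fewer cells of a type cannot be told apart from less RNA per cell.

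Libraries held 41364448 to 57583153 counts, and the 4 CD fed libraries (55415835 to 57583153) were deeper than the other 12 (41364448 to 53982285). The marker genes of hepatocytes (Alb, Apoa1, Ttr, Serpina1a and Cps1) summed to 102535 to 135476 CPM (counts relative to library size) in fed and 84702 to 107806 CPM in fasted livers on CD, and to 107516 to 136107 and 69646 to 101055 CPM on HFD, so the defining markers of the labelled tissue were present. The 5 endothelial markers summed to 198 to 223 CPM in CD fed and 147 to 194 CPM in CD fast livers, and on HFD to 186 to 204 (fed) and 179 to 236 CPM (fasted). Kupffer cell markers summed to 198 to 382, 140 to 225, 212 to 307 and 172 to 313 CPM, and stellate cell markers to 182 to 233, 114 to 190, 196 to 303 and 205 to 299 CPM, with the groups in the order given above. None of these markers was at 0 in any group. Adipocyte markers summed to at most 6.99 CPM except in HFD fast livers, where they ranged from 2.08 to 70.3 CPM. The 5 pancreatic acinar markers summed to 14.0 to 23.2 CPM in CD fed and 6.04 to 11.9 CPM in CD fast livers, and on HFD to 9.07 to 18.9 (fed) and 6.28 to 9.18 CPM (fasted), with Prss2, Cpa1, Pnlip and Amy2a5 at 0 in CD fed and HFD fast livers and Amy2a5 at 0 in all groups. Erythrocyte markers summed to 270 to 347 CPM in CD fed and 172 to 305 CPM in CD fast livers, and on HFD to 238 to 266 (fed) and 255 to 404 CPM (fasted), with none at 0. Depth, the endothelial sum and the acinar sum therefore separated CD fed from CD fast libraries as Srsf5 did. The acinar sum in CD fed livers was of Cela1 alone. Prss2, Cpa1 and Pnlip were detected in CD fast and not in CD fed livers, against the direction of that sum. Depth and the erythrocyte sum separated CD fed from HFD fed libraries as Srsf5 did. The hepatocyte sum was lower in every HFD fast than in every HFD fed library, and the sum of 5 lymphocyte markers, none at 0, was higher (1.42 to 2.34 CPM in HFD fed and 2.47 to 4.30 CPM in HFD fast livers), so both separated these groups as Srsf2, Clk2, Clk4, Rbm3 and Hspa8 did. The stellate cell sum separated CD fast from HFD fast libraries. Their part in the results was not tested.

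Srsf5 was the 1 member called in comparisons between pairs of groups and in the difference between diets. The gene lies on chromosome 12 of GRCm38 (80945504 to 80950507, plus strand). It rose 1.52-fold with fasting in mice on CD, was higher in HFD than in CD livers of fed mice, and showed no rise with fasting in mice on HFD. Of the other members, Srsf4 and Srsf1 passed the test only when a factor was averaged over the other factor, and the remaining 7 did not pass it in any comparison.

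The 250 bases before the RefSeq start are printed for these 3 members, since their transcript levels are what the results turn on. The sequences are from RefSeq on GRCm38.p6, which held all 10 members, and are written 5′ to 3′ on the strand of the gene, from chr12:80945249-80945498 (Srsf5, plus strand), chr4:131873387-131873636 (Srsf4, plus strand, the first of 3 starts listed) and chr11:88047123-88047372 (Srsf1, plus strand). Capitals mark matches, on either strand, to GGGCGG (the GC box), CCGGAAG (the core of an ETS factor site), CCAAT (the CCAAT box), TATAAA (the TATA box), CACGTG (an E box), TGACGTCA (the cAMP response element), GTAAACA (a forkhead site) or GAANNTTC (a heat-shock element).
Srsf5: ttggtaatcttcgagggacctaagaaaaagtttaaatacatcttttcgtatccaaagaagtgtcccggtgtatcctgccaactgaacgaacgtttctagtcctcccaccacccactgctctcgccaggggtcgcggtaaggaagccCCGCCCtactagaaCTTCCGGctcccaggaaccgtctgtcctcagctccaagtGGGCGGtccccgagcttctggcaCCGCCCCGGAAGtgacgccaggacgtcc
Srsf4: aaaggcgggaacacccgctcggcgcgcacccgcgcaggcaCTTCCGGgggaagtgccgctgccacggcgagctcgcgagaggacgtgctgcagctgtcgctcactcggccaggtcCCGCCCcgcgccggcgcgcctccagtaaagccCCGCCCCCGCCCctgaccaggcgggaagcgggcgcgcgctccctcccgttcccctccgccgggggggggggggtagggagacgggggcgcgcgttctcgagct
Srsf1: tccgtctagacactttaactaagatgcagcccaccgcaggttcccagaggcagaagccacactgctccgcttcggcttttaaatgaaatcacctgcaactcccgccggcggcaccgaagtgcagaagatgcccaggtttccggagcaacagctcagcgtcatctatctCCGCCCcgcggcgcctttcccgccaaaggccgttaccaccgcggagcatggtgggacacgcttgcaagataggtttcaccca

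The Srsf5 window held 3 matches to GGGCGG, beginning 104, 51 and 28 bases before the start, and 2 matches to CCGGAAG, beginning 90 and 23 bases before it. The GC box nearest the start and the nearer CCGGAAG share 1 base. The Srsf4 window held 3 GC boxes and 1 CCGGAAG, and the Srsf1 window 1 GC box. GGGCGG was present in 9 of the 10 members and in 32.9% of 27025 promoter windows of this length, and CCGGAAG in 4 of the 10 members and in 7.05% of the windows. CCAAT was found in 3 members (34.5% of all windows) and TATAAA in 2, Srsf2 and Srsf3 (13.0%). CACGTG (6.05% of all windows) and TGACGTCA (1.62%) were in none of the members, and GTAAACA (3.09%) and GAANNTTC (6.78%) were in 1 each, Srsf6 and Srsf9. A match is only a run of letters, and no binding was measured.

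In CD fed livers Srsf5 was at 165.0, 152.4, 137.8 and 163.4 CPM (scaled by TMM, the trimmed mean of M-values). In CD fast livers it was at 211.7, 231.5, 248.9 and 250.8 CPM, so that every fasted library was above every fed one. In HFD fed livers the values were 221.6, 202.1, 204.5 and 195.5 CPM, again all above the CD fed libraries. In HFD fast livers they were 219.0, 214.9, 189.5 and 196.8 CPM, a range that overlapped with that of HFD fed livers. The group means were 155 ± 12.5, 236 ± 18.2, 206 ± 11.1 and 205 ± 14.1 CPM with the groups in this same order (SD, n = 4 each).

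**Figure D1:**
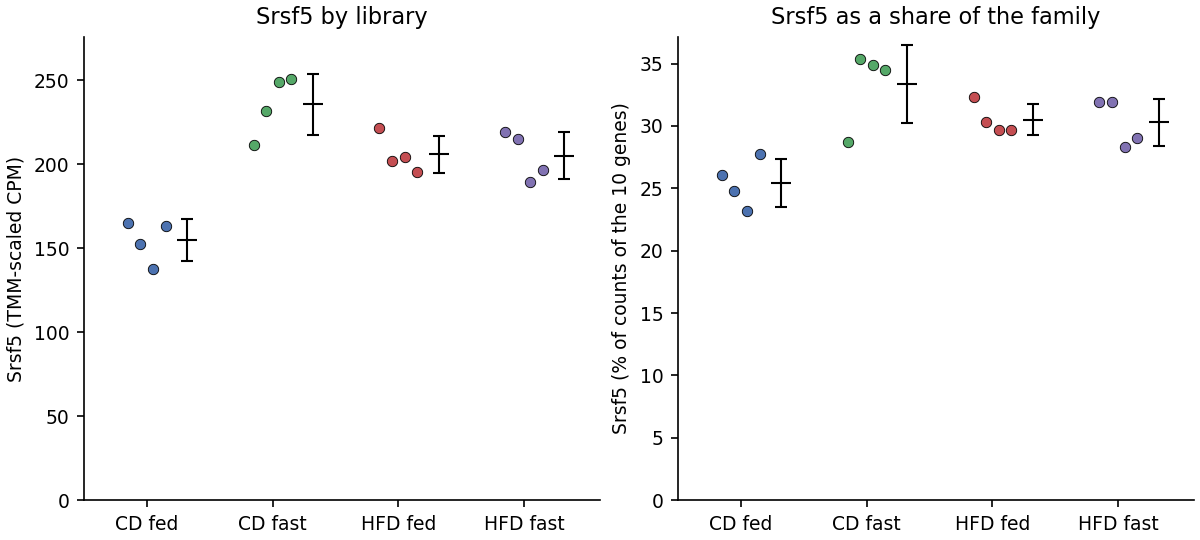
Srsf5 in each of the 16 libraries (points), as TMM-scaled CPM (left) and as a percent of the counts of the 10 members (right), with the mean ± SD of 4 libraries beside each group. The 4 CD fed libraries sit between 137.8 and 165.0 CPM, below the other 12.

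Fasting raised Srsf5 on CD by 0.61 ± 0.08 on the log2 scale (SE), a fold of 1.52 (95% interval 1.35 to 1.72, adjusted p = 0.000116). On HFD the change with fasting was -0.01 ± 0.08, a fold of 0.996 (0.883 to 1.12, adjusted p = 0.972). The interval on HFD therefore ends below the one on CD. The difference between the fasting changes, that on HFD minus that on CD, was -0.61 ± 0.12 on the log2 scale (adjusted p = 0.0164). Since fasting on CD, HFD in fed mice and this difference all use the same CD fed libraries, they are not separate pieces of evidence. The calls in fasting on CD, in HFD in fed mice and for the difference held in all 16 fits that omit 1 library. The highest adjusted p were 0.000698, 0.0276 and 0.0404, each without CD fed replicate 2, and the calls also held under every other setting tried.

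HFD raised Srsf5 in fed mice by 0.41 ± 0.08 on the log2 scale, a fold of 1.33 (1.18 to 1.50, adjusted p = 0.00723). In fasted mice the change with HFD was -0.20 ± 0.08, a fold of 0.870 (0.772 to 0.981), and it did not pass the test (adjusted p = 0.132). From high to low, the group means ran CD fast, HFD fed, HFD fast, CD fed. HFD fed and HFD fast were not distinguishable, and CD fast overlapped with each of them in its lowest library. Averaged over the diets, fasting raised Srsf5 by 0.30 ± 0.06 (adjusted p = 0.00137), a mean over 2 diets whose changes differ.

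Because Srsf5 is the most abundant member, it moved the sum of the family. The 10 members summed to 608 ± 20.4 CPM in fed and 708 ± 36.9 CPM in fasted livers on CD, and to 675 ± 14.4 and 677 ± 7.16 CPM on HFD (SD, n = 4). Without Srsf5 the sums were 454 ± 19.4, 473 ± 42.3, 469 ± 10.2 and 472 ± 11.1 CPM. Srsf5 made up 23.2% to 27.8% of the counts of the 10 members in CD fed and 28.7% to 35.3% in CD fast livers. On HFD its share was 29.7% to 32.3% when fed and 28.3% to 31.9% when fasted. All 10 members together took 0.0572% to 0.0623% of all counts in CD fed libraries and between 0.0619% and 0.0768% in the others.

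Per length, the members spanned about an order of magnitude, and Srsf5 led. As CPM per kb of annotated exon, averaged over 16 libraries, Srsf5 was at 50.2, Srsf2 at 30.7 and Srsf6 at 19.9. Srsf5 was above Srsf2 and Srsf2 above Srsf6 within each of the 16 libraries. Srsf4 (12.1), Srsf1 (11.1) and Srsf9 (9.96) were close together: Srsf4 was above Srsf1 in 10 of 16 libraries, and Srsf1 above Srsf9 in 12. Srsf11 (7.93), Srsf7 (6.43), Srsf3 (5.55) and Srsf10 (3.34 CPM per kb) followed, each above the next in 16 of 16 libraries. The order in the middle depends on which exons are counted as length. With the longest protein-coding transcript in place of all exons, Srsf5, Srsf2 and Srsf6 kept the first 3 places and Srsf10 the last, while Srsf11 moved from place 7 to 4, Srsf3 from 9 to 6 and Srsf1 from 5 to 8. The fewest counts of any member in any library were 630 (Srsf9), so that counting error was small for all of them.

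**Figure D2:**
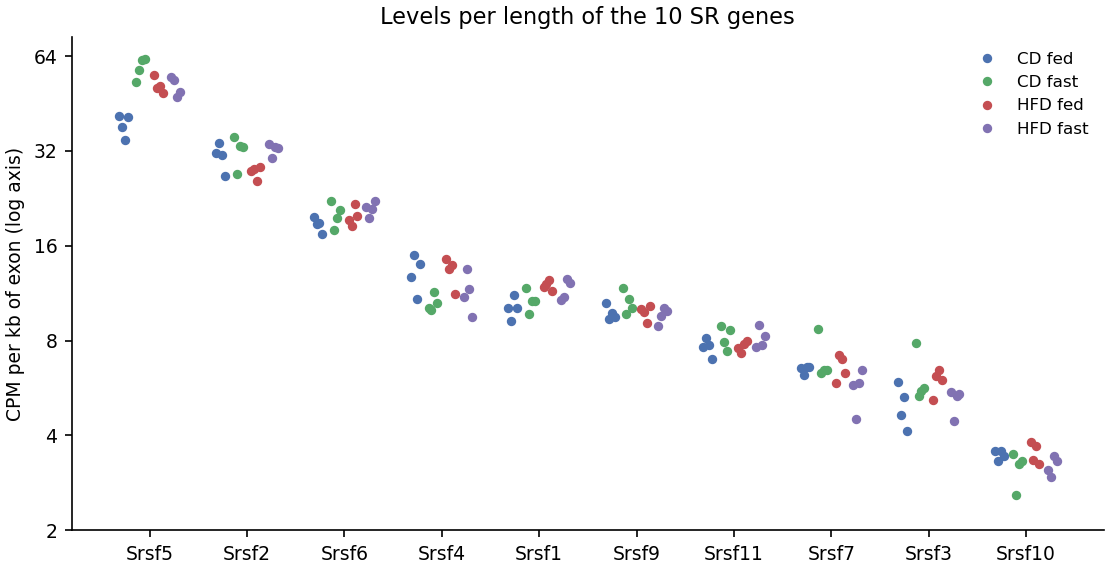
CPM per kb of annotated exon (log axis) of the 10 members in the 16 libraries, coloured by group and ordered by the mean over all libraries. Srsf5 leads at a mean of 50.2 and Srsf10 is lowest at 3.34, and for Srsf5 the CD fed libraries lie below those of the other groups.

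Among the comparisons between pairs of groups, fasting in mice on CD had the most genes called, 25.2% of the 15075 tested at an adjusted p under 0.05. Of the 10 members 1 was called, Srsf5, which is below that background share. An unadjusted p under 0.05 was found for 3 members and for 5674 of the 15075 genes. The groups did not overlap for 1 member, against 25.4% of all genes. The median log2 change of the members was 0.10, beside -0.01 over all genes tested. Leaving out Srsf5, the members lay between -0.32 (Srsf4) and 0.28 (Srsf3).

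**Figure D3:**
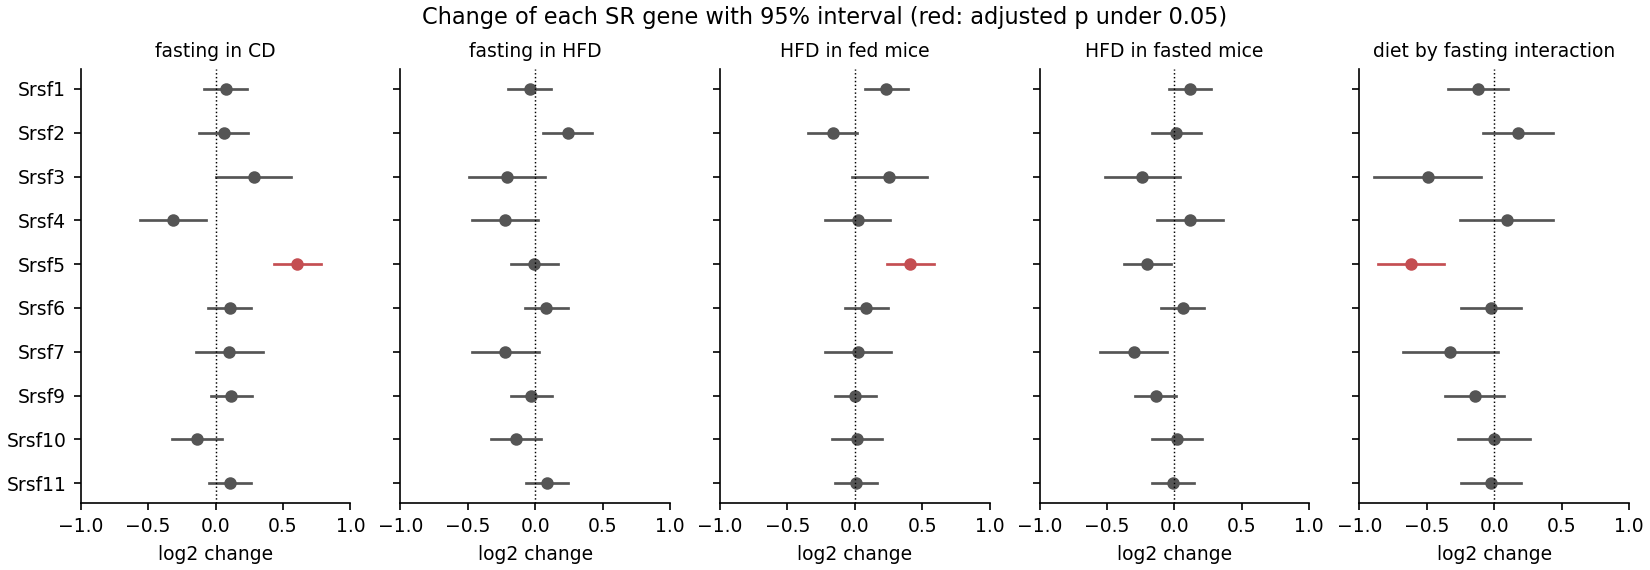
log2 change of each member with its 95% interval in the 4 comparisons between pairs of groups and for the difference between the fasting changes (HFD minus CD). Red marks an adjusted p under 0.05 over all genes tested, which holds for Srsf5 in fasting on CD (0.61), HFD in fed mice (0.41) and the difference (-0.61).

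Srsf4, the SR protein with the longest RS domain, lies on chromosome 4 (131873617 to 131901706, plus strand). It stood at 45.3, 53.2, 38.5 and 49.7 CPM in CD fed and at 36.2, 35.7, 40.8 and 37.4 CPM in CD fast livers. On HFD it was at 51.9, 48.0, 49.7 and 40.0 CPM in fed and at 39.1, 48.0, 41.4 and 33.9 CPM in fasted livers. Most fasted libraries were below most fed ones, with an overlap on each diet. The log2 change with fasting was -0.32 ± 0.11 on CD (adjusted p = 0.0555) and -0.22 ± 0.11 on HFD (adjusted p = 0.237), neither past the threshold. The change on CD was called under 3 of 9 other settings and in 5 of the 16 fits without 1 library. Averaged over diets Srsf4 fell by 0.27 on the log2 scale (SE 0.08), a fold of 0.830 (0.736 to 0.935, adjusted p = 0.0214). With that average 28.8% of all genes were called, and 2 of the 10 members, Srsf4 and Srsf5 in opposite directions. The difference of the fasting changes between diets was 0.09 ± 0.16 for Srsf4 (adjusted p = 0.786). The annotated exons of Srsf4 share 1532 bases, 43.0% of their length, with Gm12992 on the opposite strand. Since the strand setting of the counting is not stated, reads there are uncertain, although Gm12992 had only 1086 counts over all libraries.

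Srsf1, the prototype SR protein, which also acts in mRNA export and translation, lies on chromosome 11 (88047373 to 88053755, plus strand). In CD fed livers it was at 58.0, 52.7, 63.5 and 58.0 CPM and in HFD fed livers at 67.4, 69.1, 70.9 and 65.8 CPM, without overlap. In CD fast livers it was at 67.1, 55.6, 61.1 and 61.0 CPM and in HFD fast livers at 61.4, 62.8, 71.6 and 69.5 CPM, with overlap. The log2 change with HFD was 0.23 ± 0.07 in fed mice (adjusted p = 0.0663) and 0.12 ± 0.07 in fasted mice (adjusted p = 0.343). Averaged over feeding states Srsf1 rose by 0.18 ± 0.05, a fold of 1.13 (1.05 to 1.22, adjusted p = 0.0409), the 1 member called where 12.0% of all genes were. This call was close to the threshold: it was lost when any of 12 of the 16 libraries was left out, with adjusted p up to 0.0877 (without CD fed replicate 2), and under 2 of 8 other settings.

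Srsf2 (SC35, which remains in the nucleus) lies on chromosome 11 (116849901 to 116853094, minus strand). It was at 81.7, 83.2, 75.8 and 84.3 CPM in HFD fed and at 99.8, 90.2, 97.5 and 96.5 CPM in HFD fast livers, without overlap. Its log2 change with fasting on HFD was 0.24 ± 0.09, which did not pass the test (adjusted p = 0.0926). On CD the fed libraries (78.7 to 100.2 CPM) and the fasted ones (80.3 to 104.6 CPM) overlapped, with a log2 change of 0.06 ± 0.09. Of its exonic bases 15.6% are shared with Mettl23 and 9.7% with Mfsd11, both on the opposite strand, so some of its counts are uncertain. In fasting on HFD 0 of 10 members were called by edgeR (8.86% of all genes), and DESeq2 and limma-voom also called 0. An unadjusted p under 0.05 was found for 1 member and for 3864 of the 15075 genes. The groups did not overlap for Srsf2 alone, against 16.7% of all genes. Without CD fast replicate 2, a library of another diet that enters only the estimate of the spread and the scaling, Srsf2 was called in this comparison (adjusted p = 0.0484).

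Srsf3, the smallest SR protein, is needed for hepatocytes to mature and lies on chromosome 17 (29032628 to 29043373, plus strand). It had the largest SE of a fasting change among the members, 0.13 on the log2 scale. CD fed livers were at 46.8, 36.6, 41.9 and 32.6 CPM, and CD fast livers at 61.9, 42.1, 43.7 and 44.8 CPM. HFD fed livers were at 41.0, 48.9, 51.1 and 47.5 CPM, and HFD fast livers at 43.3, 35.1, 42.1 and 42.6 CPM. The log2 change with fasting was 0.28 ± 0.13 on CD (adjusted p = 0.125) and -0.21 ± 0.13 on HFD (adjusted p = 0.339). The difference between them was -0.49 ± 0.19 (unadjusted p = 0.0176, adjusted p = 0.154). Without CD fast replicate 1, the library at 61.9 CPM, the change on CD was 0.14.

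Srsf7 (9G8), the member with a zinc knuckle, lies on chromosome 17 (80200080 to 80207307, minus strand). CD fast replicate 1 was also its highest library, at 31.0 CPM, where the other CD fast libraries were at 22.3, 22.8 and 22.8 CPM. CD fed libraries lay between 22.1 and 23.4 CPM, HFD fed ones between 20.9 and 25.5 CPM and HFD fast ones between 16.0 and 22.9 CPM. The log2 change with HFD in fasted mice was -0.30 ± 0.12 (adjusted p = 0.117), and -0.18 without CD fast replicate 1.

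**Figure D4:**
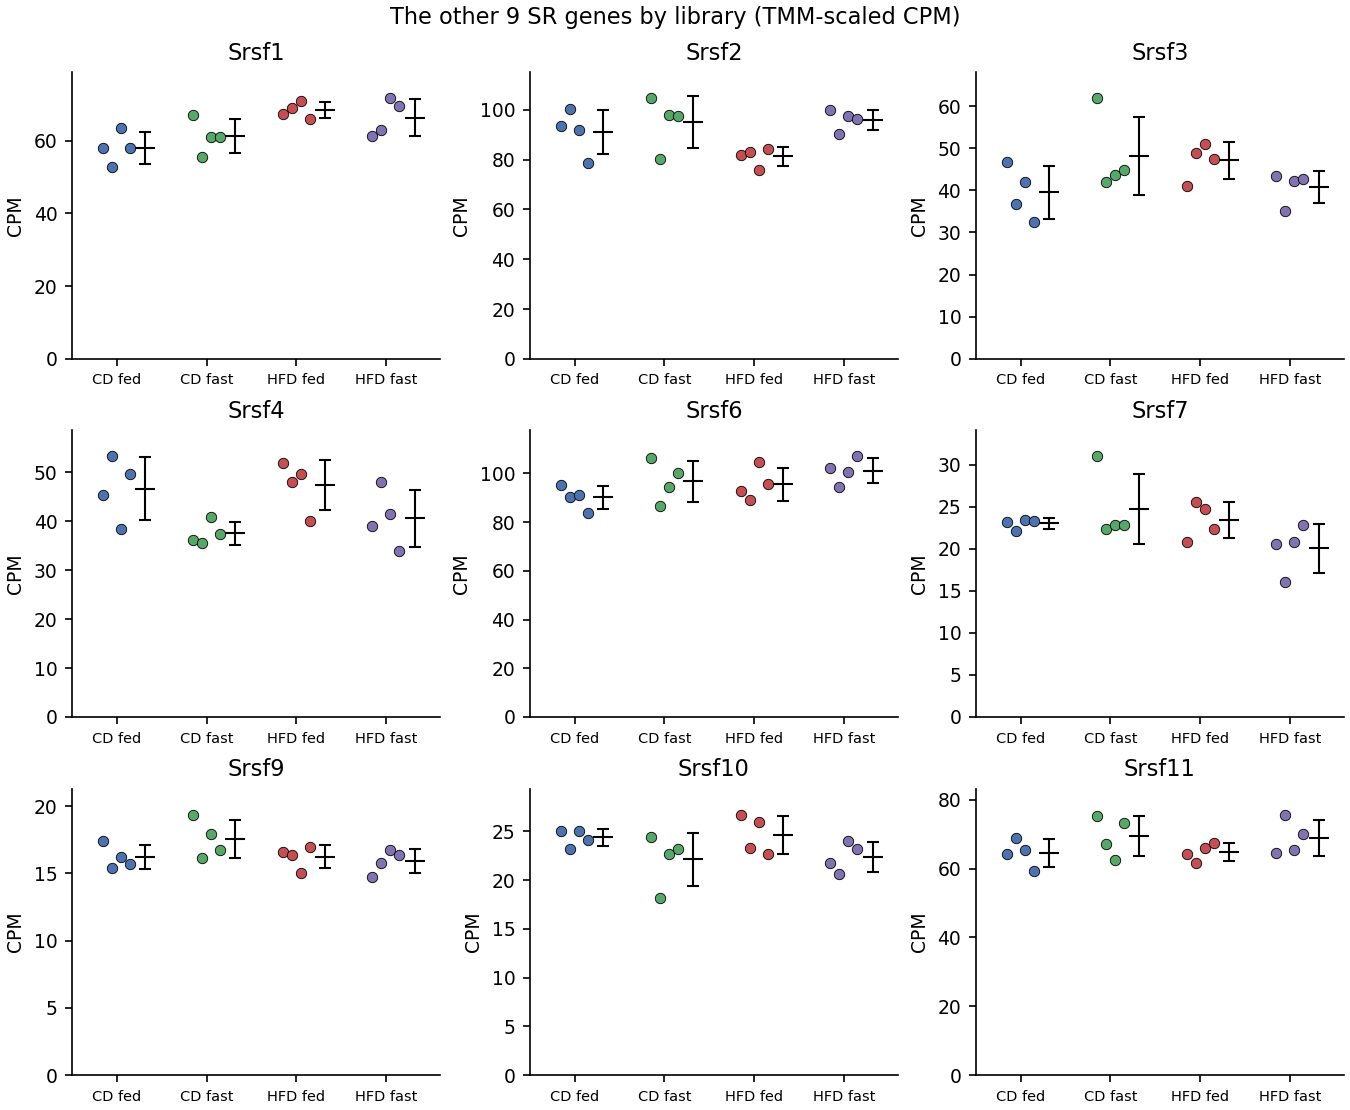
TMM-scaled CPM of the 9 members other than Srsf5 in each library (points), with the mean ± SD of 4 libraries beside each group. Srsf1 separates HFD fed (65.8 to 70.9 CPM) from CD fed (52.7 to 63.5 CPM) livers, and CD fast replicate 1 stands high for Srsf3 (61.9 CPM) and Srsf7 (31.0 CPM).

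The remaining members passed no test in any of the 7 comparisons. Srsf6 (chromosome 2, 162931528 to 162937121, plus strand), an enhancer-binding member close to Srsf4 and Srsf5 in domain layout, had group means of 90.1 ± 4.69, 96.9 ± 8.47, 95.5 ± 6.68 and 101 ± 5.19 CPM (groups in the order used for Srsf5). Its fasting fold was 1.07 (0.963 to 1.20) on CD, an interval that lies below that of Srsf5. Srsf9 (chromosome 5, 115327177 to 115333080, plus strand), which has a short RS domain, lay between 14.7 and 19.4 CPM in all libraries. Srsf10 (chromosome 4, 135855747 to 135869908, plus strand), known as a general repressor of splicing when dephosphorylated, had group means of 24.4 ± 0.87, 22.1 ± 2.74, 24.7 ± 1.96 and 22.4 ± 1.53 CPM. Its log2 change with fasting was -0.14 ± 0.09 on CD (adjusted p = 0.262) and -0.14 ± 0.09 on HFD (adjusted p = 0.338). Srsf11 (chromosome 3, 158010473 to 158036639, minus strand) lay between 59.2 and 75.7 CPM in all libraries, with group means of 64.5 to 69.5 CPM.

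With HFD in fed mice 1 of 10 members was called, Srsf5, where 7.50% of all genes were. Srsf5 and Srsf1 were the 2 members without overlap, against 15.7% of all genes. The median log2 change of the members was 0.02, beside 0.01 over all genes. With HFD in fasted mice edgeR called 0 of 10 (7.70% of all genes), DESeq2 and limma-voom called 0, and 0 members were without overlap (14.0% of all genes). An unadjusted p under 0.05 was found for 2 members, Srsf5 and Srsf7, and for 3905 of the 15075 genes. Among the comparisons between pairs of groups, scaling by total count shifted the median of all genes furthest here. It moved that median to 0.17 and called Srsf1 (0.28, 0.10 above that median). Offsets for GC content and length moved the median to -0.06 and called Srsf5 (-0.32) and Srsf7 (-0.42) as lower. Of all genes called under the offsets 25.3% were higher, in place of 39.6%. For the difference of the fasting changes between diets, 1 of 10 was called where 2.59% of all genes were, and 8 of 10 members had a negative value, the lowest being Srsf5 at -0.61. Srsf10 was counted there at -5.6e-05, and scaling by total count turned Srsf6, Srsf10 and Srsf11 positive.

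By the root mean square difference of centred and scaled log2 CPM over the 16 libraries, the genes nearest to Srsf5 among 11004 with a mean of at least 100 counts were Lbp (0.365 SD), Nrbp2 (0.460 SD) and Ssx2ip (0.470 SD). Lbp, which encodes the lipopolysaccharide-binding protein secreted by hepatocytes, was at 78.8 ± 13.1, 156 ± 9.69, 135 ± 14.6 and 137 ± 15.9 CPM (groups ordered as for Srsf5). Nrbp2 was at 48.6 ± 5.12, 78.2 ± 6.25, 79.7 ± 3.21 and 68.9 ± 5.50 CPM in the same order. The other 9 members ranked from 2943 (Srsf6, 1.14 SD) to 8586 (Srsf10, 1.60 SD), so that none followed the pattern of Srsf5 closely.

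The kinases that phosphorylate RS domains were looked at next, with the importer Tnpo3. Of 10 listed genes 9 were tested, and 3 were called in fasting on CD, 1 higher and 2 lower, where 25.2% of all genes were called. Clk3 fell by 0.40 on the log2 scale (SE 0.09, adjusted p = 0.00361), from 36.9 to 41.8 CPM in CD fed to 27.7 to 31.3 CPM in CD fast livers. Srpk1, the cytoplasmic SR protein kinase, fell by 0.29 (SE 0.08, adjusted p = 0.0180). Clk1 rose by 0.32 ± 0.10 (adjusted p = 0.0245), from 45.8 to 60.1 CPM in fed to 57.7 to 73.6 CPM in fasted livers, with some overlap. On HFD 2 were called (8.86% of all genes), both higher with fasting: Clk4 by 0.26 ± 0.07 (adjusted p = 0.0357) and Clk2 by 0.25 ± 0.08 (adjusted p = 0.0470). The list's median log2 change was 0.01 on CD and -0.04 on HFD, beside -0.01 and 0.01 over all genes. No gene of the list was called for the difference between diets (2.59% of all genes) or with HFD in fed (7.50%) or fasted mice (7.70%), so the lists of called kinases on CD and on HFD are not shown to differ. Averaged over diets 5 of 9 were called (28.8% of all genes), 3 higher and 2 lower after fasting, among them Clk1 and Clk4 as higher and Srpk1 and Clk3 as lower.

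**Figure D5:**
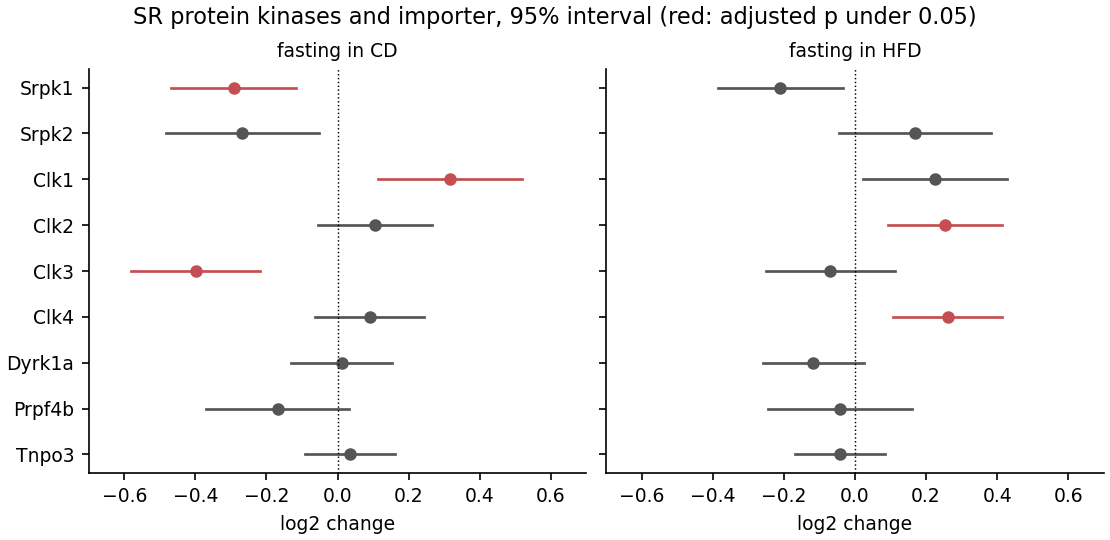
log2 change with fasting, with its 95% interval, of the 9 tested genes of the list of SR protein kinases and their importer on CD (left) and HFD (right), where red marks an adjusted p under 0.05. Clk3 (-0.40), Srpk1 (-0.29) and Clk1 (0.32) are marked on CD, and Clk2 (0.25) and Clk4 (0.26) on HFD.

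Of 25 SR-related genes, which carry RS domains outside the classical family, 24 were tested. In fasting on CD, where 25.2% of all genes were called, 1 was called higher and 1 lower, Scaf11 (0.19 ± 0.05, adjusted p = 0.0193) and Luc7l, a factor of the U1 particle, which fell by 0.22 (SE 0.07, adjusted p = 0.0238). With HFD in fed mice Luc7l was lower by 0.28 (SE 0.07, adjusted p = 0.0200), the 1 gene of the list called there beside 7.50% of all genes. The difference between its fasting changes on the diets was 0.33 ± 0.09 (adjusted p = 0.0705). All of these Luc7l values use the same CD fed libraries, so they are not separate pieces of evidence. With HFD in fasted mice (7.70% of all genes called) U2af1, the small subunit that reads the 3′ splice site, fell by 0.38 (SE 0.08, adjusted p = 0.0150) and Scaf1 fell by 0.26 (SE 0.07, adjusted p = 0.0472). In fasting on HFD and for the difference between diets 0 of the 24 were called (8.86% and 2.59% of all genes). Their median log2 changes lay between -0.07 and 0.04 in these 5 comparisons.

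Among 10 factors of nonsense-mediated decay, the pathway that removes poison exon transcripts, 1 was called in fasting on CD (25.2% of all genes), the endonuclease Smg6, which rose by 0.26 ± 0.08 (adjusted p = 0.0217). In fasting on HFD, HFD in fasted mice and the difference between diets 0 of the 10 were called, where 8.86%, 7.70% and 2.59% of all genes were. The medians of this list lay between -0.03 and 0.06 in the 5 comparisons.

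Genes that respond to temperature were included because body temperature falls in fasted mice and CLK kinases and SR proteins are known to be sensitive to it, although no temperature was analysed here. Of 8 genes, 3 were called in fasting on CD (25.2% of all genes), all higher: Rbm3, a cold-induced RNA-binding protein (0.94 ± 0.14, adjusted p = 0.000238), its relative Cirbp (0.66 ± 0.19, adjusted p = 0.0198) and the chaperone Hspa8 (0.56 ± 0.14, adjusted p = 0.0112). On HFD Rbm3 rose by 1.19 ± 0.14 (adjusted p = 0.000302) and Hspa8 by 0.71 ± 0.15 (adjusted p = 0.00888), where 8.86% of all genes were called. Cirbp had a log2 change of 0.33 on HFD that did not pass the test (adjusted p = 0.292), and the difference between its fasting changes was -0.33 (not called). Rbm3 went from 27.0 ± 4.23 to 51.8 ± 3.92 CPM on CD and from 21.9 ± 3.27 to 50.0 ± 8.25 CPM on HFD. With HFD in fed mice (7.50% of all genes called) 3 heat-shock genes were lower, Hspa1b, Hspa8 and Hsph1, at log2 changes of -1.82, -0.64 and -0.77. With HFD in fasted mice and for the difference between diets 0 of the 8 were called (7.70% and 2.59% of all genes). The list's median log2 change was 0.50 with fasting on CD and 0.55 on HFD, beside -0.01 and 0.01 over all genes, and -0.60 with HFD in fed mice. With fasting its genes lay between -0.54 and 1.03 on CD and between 0.33 and 1.37 on HFD. The list joins cold-induced with heat-shock genes, so its median does not follow a single response to temperature. Of the 2 nuclear RNAs tied to speckles and paraspeckles, Neat1 rose with fasting on CD (1.76 ± 0.42, adjusted p = 0.00710) and on HFD (2.09 ± 0.43, adjusted p = 0.00875), while Malat1, the other gene of this list, had log2 changes of 0.06 and 0.17 that did not pass the test.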

How the data were processed

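The members and the gene lists were chosen with earlier results of these data known. Poly(A) RNA of 16 mouse livers was sequenced by the authors as paired ends after a NEBNext Ultra II preparation. The deposited counts are raw reads or read pairs per Ensembl gene. The authors aligned to GRCm38 with TopHat2 2.0.11 in a first-strand mode and counted with featureCounts. The strand setting of the counting is not given in the sources used here. No column was left unused (0).

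Of 46078 genes 45229 were matched to a symbol, with positions and exon lengths from the GENCODE annotation of GRCm38. In R 4.3.3, edgeR 4.0.16 fitted 15075 genes that passed filterByExpr, after TMM scaling, with 1 coefficient per group over 16 libraries (12 residual degrees of freedom). Adjusted p are from its quasi-likelihood test with Benjamini-Hochberg adjustment over all 15075 genes, called under 0.05, and intervals are 95%. A prior count of 2 was added for log2 CPM. The 10 members were described in every comparison. List genes were named where called, at most 4 per list and comparison in order of p, and the 3 genes nearest in pattern were named for a member called in a single comparison or in the difference between diets. The result of 1 listed gene is not reported here, although list totals include it. Scripts were tested on simulated data. Alternatives were DESeq2 1.42.0, limma-voom (limma 3.58.1), other scalings and filters, the groups compared alone, the replicate block, offsets for GC content and length, and each library left out. The length of the longest coding transcript was added after seeing the data. The lowest chi-square per gene between 2 libraries of a group was 37.6, so none was a copy. Counts cover counting error only, since reads carry no molecular identifiers.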

Additional observations from a re-analysis of the deposited data

Results flagged for a closer look

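In 4 cases 1 library stood apart from the other 3 of its group by Dixon's criterion for 4 samples, which chance meets in about 1 in 20 groups, and 40 groups of 4 were examined. CD fast replicate 1 was the highest for Srsf3 (61.9 CPM) and for Srsf7 (31.0 CPM). HFD fast replicate 2 was the lowest for Srsf3 (35.1 CPM), and CD fed replicate 2 the lowest for Srsf7 (22.1 CPM) in a group whose SD was 0.63 CPM. The fasting change of Srsf5 differed between the diets by a tested interaction, at -0.61 on the log2 scale (HFD minus CD, edgeR adjusted p = 0.0164).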

How the results depend on the processing

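Of the member calls, those of Srsf5 in fasting on CD, HFD in fed mice, the difference between diets and fasting averaged over diets, and that of Srsf4 in fasting averaged over diets, held in every alternative run. The count of members called in fasting on CD was 2 in place of 1 under DESeq2, total count scaling and a filter at a mean of 100 counts (Srsf4 and Srsf5) and under GC content and length offsets (Srsf3 and Srsf5). With HFD in fed mice it was 2 under DESeq2 and total count scaling (Srsf1 and Srsf5), and with HFD in fasted mice it was 1 under total count scaling (Srsf1) and 2 under the offsets (Srsf5 and Srsf7). With HFD averaged over feeding states it was 3 under total count scaling (Srsf1, Srsf5 and Srsf6) and 0 without a filter and under the offsets. With 1 library left out in turn the counts ranged from 1 to 2 in fasting on CD, 0 to 1 in fasting on HFD, 1 to 2 with HFD in fed mice, 2 to 3 in fasting averaged over diets and 0 to 1 with HFD averaged. The cause was not tested. Some member values changed sign, none of them called in the reported comparison or under the setting that turned it. Under total count scaling Srsf1 (0.0080), Srsf5 (0.040) and Srsf9 (0.018) did so in fasting on HFD, Srsf9 (0.019) and Srsf11 (0.15) with HFD in fasted mice, and Srsf6 (0.069), Srsf10 (0.092) and Srsf11 (0.065) for the difference between diets. Under the offsets Srsf7 (-0.0089), Srsf10 (-0.027) and Srsf11 (-0.013) did so with HFD in fed mice, and Srsf1 (-0.0043), Srsf2 (-0.039), Srsf6 (-0.0335) and Srsf10 (-0.12) in fasted mice. Without a filter Srsf9 (-0.011) and Srsf11 (-0.0068) did so with HFD in fed mice and Srsf10 (0.0089) for the difference, where limma-voom (0.0075), the filter at 100 (0.017) and the replicate block (0.0061) also turned Srsf10. The filter at 100 turned Srsf5 (0.0017) in fasting on HFD and Srsf11 (0.015) with HFD in fasted mice. Leaving out 1 library turned the sign of these values within the ranges given. On CD with fasting, Srsf2 -0.0017 to 0.14 and Srsf7 -0.0225 to 0.15. On HFD with fasting, Srsf5 -0.043 to 0.030 and Srsf9 -0.066 to 0.0050. With HFD in fed mice, Srsf4 -0.061 to 0.094, Srsf7 -0.023 to 0.073, Srsf9 -0.018 to 0.041, Srsf10 -0.024 to 0.055 and Srsf11 -0.030 to 0.042. With HFD in fasted mice, Srsf2 -0.060 to 0.061, Srsf10 -0.067 to 0.0655 and Srsf11 -0.0615 to 0.027. For the difference, Srsf4 -0.0056 to 0.17, Srsf6 -0.074 to 0.024, Srsf10 -0.084 to 0.0485 and Srsf11 -0.077 to 0.018.

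The correlation of same-numbered libraries had a median of 0.06 over 24 pairs (-0.24 to 0.66). Libraries of other numbers had a median of 9.9e-05 over 72 pairs (-0.37 to 0.39). Values over 0.1 were found in 8 of the 24 and 18 of the 72 pairs. Whether some replicate numbers pair libraries is therefore not settled. The replicate block changed no member call, with 1 member in fasting on CD, 0 in fasting on HFD, 1 with HFD in fed mice, 0 in fasted mice and 1 for the difference. Over all genes DESeq2 called 2009 in place of 1335 in fasting on HFD, 1768 in place of 1131 with HFD in fed mice, 1967 in place of 1161 in fasted mice and 1066 in place of 390 for the difference. The offsets called 608 for the difference, a fit of the compared groups alone 90 with HFD in fasted mice, and total count scaling 2101 there and 3085 in place of 1809 with HFD averaged. Total count scaling also moved the median of all genes to 0.17 with HFD in fasted mice and 0.13 with HFD averaged, and the share of calls that were higher from 54.4% to 44.3% in fasting on CD, 54.0% to 67.6% in fasting on HFD, 43.8% to 68.8% with HFD in fed mice, 39.6% to 88.1% in fasted mice, 47.4% to 69.5% for the difference and 41.5% to 84.7% with HFD averaged. By rank correlation the genes most like Srsf5 were Cyp4f15, Rbp4 and Ppp1r21, 0 of them among the 3 chosen by the difference. All members had at least 630 counts in every library, so that counting error was small for each. Whether the difference in depth between groups had a part in the results was not tested.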
